A study of Mus musculus with 6 samples.

Results

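Promoters of noncoding genes and pseudogenes were examined in the 6 peak lists of a ChIP-seq study of mouse neural stem cells. ChIP-seq sequences the DNA that is recovered with an antibody against a chromatin protein, and a peak is a place where that DNA piles up. A peak was taken when the deposited annotation put it within 1000 bp of its nearest transcription start and gave that start to a gene whose type was neither protein-coding nor empty. This rule found 444 of 97783 peaks, or 444 of the 5146 promoter peaks, at 359 genes. The other promoter peaks comprised 4694 at protein-coding genes and 8 whose gene type was empty. By RefSeq class the genes were 227 long noncoding RNA (lncRNA) genes with 273 peaks, 75 microRNA genes with 89, 38 transcribed pseudogenes with 47, 7 small nucleolar RNA (snoRNA) genes with 13, and 12 others with 22. The others were ribosomal and small structured RNAs and a few genes whose 2 annotations differed: the lists call Ly6g6g and Gm10033 noncoding, and RefSeq calls them protein-coding. Predicted or clone-based names (Gm, LOC or Rik) were carried by 211 of the 359 genes.

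All 6 libraries came from cortical neural stem cells of newborn mice, kept proliferating in medium with EGF and bFGF, and each stands for a group of its own. Chd4 was the target in 4 libraries: iKO (genotype mutant, given 4-OH-TAM), Ctrl (wild type, growth medium), siSeh1 (wild type, growth medium) and siSCR (wild type, growth medium). Seh1 was the target in the other 2: Seh1-flag, titled iKO and given 4-OH-TAM but with the genotype wild type, and Seh1 Ctrl (wild type, growth medium). The labels do not spell out iKO, siSeh1 or siSCR, which are read here as inducible deletion of Seh1, silencing of Seh1 and its scrambled control. What drives the deletion, how many animals were pooled and how the flag tag was introduced is not stated in the labels. Peak lists hold no expression values, so the cell type could not be checked against marker genes. The lists held 21294 peaks in iKO, 1154 in Ctrl, 26935 in siSeh1, 2606 in siSCR, 24961 in Seh1-flag and 20833 in Seh1 Ctrl. With 1 library per group no difference has a replicate check, no p-value is given, and the 95% intervals (exact Clopper-Pearson) cover counting error only. Sequencing depth is unknown, so a peak missing from a short list was not listed there and is not shown to be absent. The deposited peak score has no stated scale and ranks peaks within a list; scores from several lists are given side by side and not compared. Rows are single-base summits in 5 lists and intervals in Seh1 Ctrl, whose distances run from the interval's centre and which has no scores.

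Chd4 is a helicase-type remodeller and a core subunit of NuRD, a complex that slides nucleosomes and removes histone acetylation, and Seh1 is a scaffold nucleoporin of the nuclear pore. lncRNA genes are transcribed by RNA polymerase II, and many begin beside a protein-coding gene and run away from it on the opposite strand, so that both genes share 1 open, CpG-rich promoter region. Most microRNAs and snoRNAs are cut from longer transcripts, often from the introns of host genes. For them the annotated start is the 5′ end of the hairpin or of the mature snoRNA and need not be where transcription begins. Transcribed pseudogenes are disabled gene copies that still make RNA, and their likeness to other copies makes short reads hard to place.

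The promoters of 6 lncRNAs are shown because Chd4 peaks lay at or within 300 bp of their starts, for 4 of them in 3 of the 4 Chd4 lists. Each sequence is the RefSeq promoter on GRCm38.p6 (the assembly of mm10), 250 bases before to 50 bases after the start, written 5′ to 3′ along the lncRNA. Capitals mark the GC box GGGCGG, bound by Sp/KLF factors, and CCAAT, the core of the NF-Y site, on either strand; the 6 other motifs searched on both strands did not occur in these windows: the TATA box TATAAA, the CRE part TGACGTC, the E-box CACGTG, the NRF1 core GCATGCG, the ETS motif CCGGAAG and the promoter motif CGCGAGA. Chaserr is listed under its older name 1810026B05Rik and lies at chr7:73558346-73558645, minus strand. Mir22hg, the host transcript of miR-22, lies at chr11:75461289-75461588, plus strand. C630043F03Rik, which starts beside the corepressor gene Tle1, lies at chr4:72200994-72201293, plus strand. 3110056K07Rik, which starts beside the chromatin gene Arid4a, lies at chr12:71015774-71016073, minus strand. Dancr, a host of snoRNAs, lies at chr5:74092810-74093109, plus strand, and Oip5os1, also called Cyrano, at chr2:119594046-119594345, plus strand.
Chaserr: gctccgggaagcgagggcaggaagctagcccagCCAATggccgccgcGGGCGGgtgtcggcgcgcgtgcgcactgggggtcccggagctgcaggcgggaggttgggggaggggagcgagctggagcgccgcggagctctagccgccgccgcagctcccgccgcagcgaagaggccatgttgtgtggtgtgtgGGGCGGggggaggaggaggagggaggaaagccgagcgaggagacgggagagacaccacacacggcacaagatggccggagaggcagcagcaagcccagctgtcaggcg
Mir22hg: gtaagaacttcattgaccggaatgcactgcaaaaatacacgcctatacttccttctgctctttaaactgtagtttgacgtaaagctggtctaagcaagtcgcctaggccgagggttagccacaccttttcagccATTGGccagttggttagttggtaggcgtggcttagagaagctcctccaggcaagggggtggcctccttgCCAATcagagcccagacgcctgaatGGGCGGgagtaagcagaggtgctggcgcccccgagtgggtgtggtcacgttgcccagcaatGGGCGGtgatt
C630043F03Rik: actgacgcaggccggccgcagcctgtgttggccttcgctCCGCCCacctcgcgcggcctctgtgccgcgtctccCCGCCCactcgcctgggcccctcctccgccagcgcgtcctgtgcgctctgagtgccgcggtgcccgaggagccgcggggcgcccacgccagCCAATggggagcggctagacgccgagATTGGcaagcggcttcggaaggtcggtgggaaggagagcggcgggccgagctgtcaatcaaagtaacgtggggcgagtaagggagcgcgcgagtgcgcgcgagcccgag
3110056K07Rik: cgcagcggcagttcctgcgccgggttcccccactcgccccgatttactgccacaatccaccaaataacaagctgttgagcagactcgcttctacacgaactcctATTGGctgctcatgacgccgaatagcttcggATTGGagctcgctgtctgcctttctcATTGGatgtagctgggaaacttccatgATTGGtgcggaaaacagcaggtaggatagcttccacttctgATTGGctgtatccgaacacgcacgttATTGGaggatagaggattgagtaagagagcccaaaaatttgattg
Dancr: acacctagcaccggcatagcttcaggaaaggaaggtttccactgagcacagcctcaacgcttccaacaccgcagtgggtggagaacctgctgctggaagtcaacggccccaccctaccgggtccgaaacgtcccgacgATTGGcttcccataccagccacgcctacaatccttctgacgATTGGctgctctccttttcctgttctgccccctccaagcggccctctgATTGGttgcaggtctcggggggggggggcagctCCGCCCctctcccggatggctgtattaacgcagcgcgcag
Oip5os1: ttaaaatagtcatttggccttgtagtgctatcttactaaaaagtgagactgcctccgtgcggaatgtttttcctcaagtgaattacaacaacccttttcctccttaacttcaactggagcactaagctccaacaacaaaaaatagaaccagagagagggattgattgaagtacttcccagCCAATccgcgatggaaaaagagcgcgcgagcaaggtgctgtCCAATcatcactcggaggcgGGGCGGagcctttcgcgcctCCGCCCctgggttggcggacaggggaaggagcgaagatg

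The window of 3110056K07Rik held 6 CCAAT boxes, all read on the opposite strand, at -146, -115, -89, -62, -21 and 6 with the start as position 1 (each the box's first base). Dancr held 3, at -112, -71 and -23, beside a GC box at 11. Mir22hg, C630043F03Rik and Oip5os1 each held 2 GC boxes and 2 CCAAT boxes, and Chaserr held 2 GC boxes and a CCAAT box at -217. Their GC content was 51% in 3110056K07Rik, 61.3% in Dancr, 54.7% in Mir22hg, 72.7% in C630043F03Rik, 50% in Oip5os1 and 72.3% in Chaserr.

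Mature microRNAs are shown for the loci that the results below turn on, with the seed (bases 2 to 8, which pairs with target RNAs) in capitals. They are RefSeq sequences on GRCm38.p6, given as RNA. miR-6976 lies inside Srf on chromosome 17, with its 3p arm at chr17:46553827-46553847, minus strand, and its 5p arm at chr17:46553862-46553884, minus strand. miR-484 lies at chr16:14159630-14159651, plus strand. let-7g-5p lies inside Wdr82 at chr9:106178846-106178867, plus strand. miR-22-3p lies inside Mir22hg at chr11:75463772-75463793, plus strand. miR-101c lies near the start of the assembled chromosome 9 at chr9:3038680-3038698, minus strand.
miR-6976-3p: aUCUCCCUcccaacuccccag
miR-6976-5p: cAGGGAAGuugagaggaaaauug
miR-484: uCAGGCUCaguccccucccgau
let-7g-5p: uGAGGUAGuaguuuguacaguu
miR-22-3p: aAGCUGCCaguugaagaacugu
miR-101c: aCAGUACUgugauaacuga

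Sequences were found for 70 of the 75 microRNA genes. Their 109 mature arms had 105 different seeds, and 4 seeds were shared by several genes, among them GAGGUAG of the let-7 family, in Mirlet7g and Mirlet7i, and UCUCUUU in Mir692-2 and Mir692-3.

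Most of the noncoding promoters were seen once. Of the 359 genes, 309 had a peak in 1 list, 38 in 2, 10 in 3 and 2 in 4; the 2 were the snoRNA gene Snord14c and the pseudogene Pisd-ps3. The lists differ in target and length, and matching counts for coding genes are not given here. Being seen once is therefore not shown to be particular to noncoding genes. Chd4 peaks lay at 107 noncoding genes in iKO, against 3 in Ctrl, and at 155 in siSeh1, against 26 in siSCR. Seh1-flag peaks lay at 76 and Seh1 Ctrl peaks at 56. As background, the share of all 26220 genes with a curated transcript that had a promoter peak was 4.74% in iKO, 0.0267% in Ctrl, 10.5% in siSeh1, 1.46% in siSCR, 1.4% in Seh1-flag and 1.07% in Seh1 Ctrl. lncRNAs were the most numerous class in the 5 longer lists, with 72 genes in iKO, 108 in siSeh1, 17 in siSCR, 41 in Seh1-flag and 30 in Seh1 Ctrl. microRNA genes numbered 21 in iKO, 27 in siSeh1, 2 in siSCR, 19 in Seh1-flag and 16 in Seh1 Ctrl, and Ctrl held none of them.

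**Figure D1:**
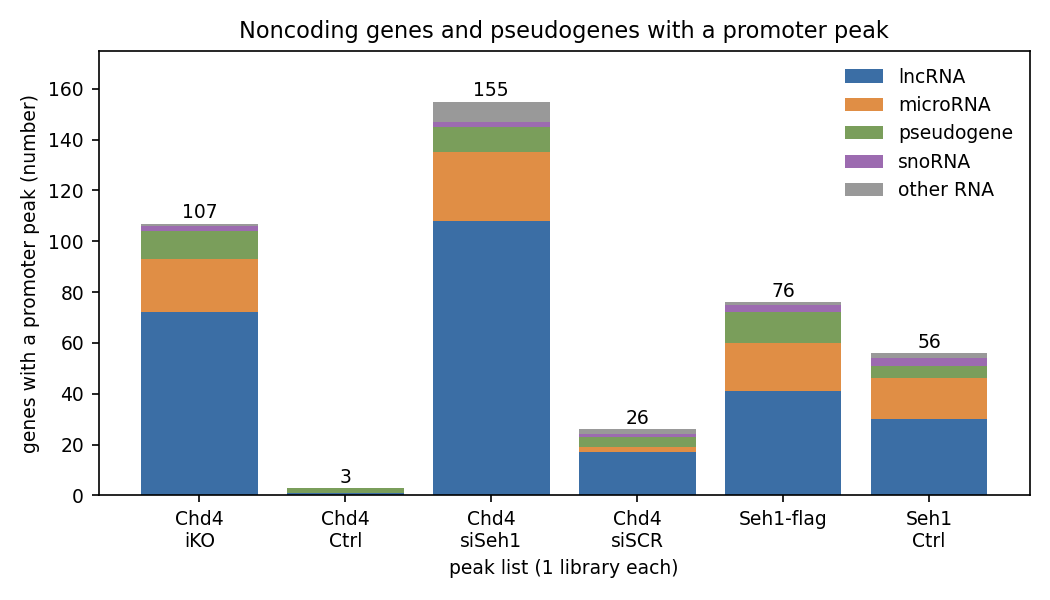
Number of noncoding genes and pseudogenes with a promoter peak (y axis) in each of the 6 peak lists (x axis, 1 library each), stacked by RefSeq class, with the total above each bar. The iKO and siSeh1 lists reach 107 and 155 genes, against 3 in Ctrl and 26 in siSCR, and lncRNAs make up most of each of the 5 taller bars.

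Noncoding genes were listed less often than protein-coding genes for Chd4 in iKO, siSeh1 and siSCR, while for Seh1 the shares of all noncoding and coding genes had overlapping intervals. Of the 5189 genes that RefSeq classes as noncoding and gives a curated transcript, 2.08% (95% interval 1.71 to 2.51%) had a Chd4 promoter peak in iKO, against 5.39% (5.09 to 5.71%) of the 21031 coding genes. In siSeh1 the shares were 2.99% (2.54 to 3.49%) of noncoding and 12.3% (11.9 to 12.8%) of coding genes, and in siSCR 0.482% (0.312 to 0.71%) of noncoding and 1.70% (1.53 to 1.89%) of coding genes. In each of these 3 lists the 2 intervals do not overlap. In Seh1-flag 1.48% (1.17 to 1.85%) of noncoding genes were listed and 1.38% (1.23 to 1.55%) of coding genes, and in Seh1 Ctrl 1.10% (0.833 to 1.42%) of noncoding and 1.07% (0.931 to 1.21%) of coding genes, so the intervals overlap. lncRNAs were listed at 2.16% in iKO, 3.25% in siSeh1 and 0.511% in siSCR, and microRNA genes at 1.71% in iKO, 2.20% in siSeh1 and 0.163% in siSCR. Transcribed pseudogenes were listed at 2.80% (1.46 to 4.85%) in iKO, 2.57% (1.29 to 4.55%) in siSeh1, 0.935% (0.255 to 2.38%) in siSCR, 3.04% (1.63 to 5.14%) in Seh1-flag and 1.40% (0.516 to 3.03%) in Seh1 Ctrl. Their Seh1-flag interval lay above that of coding genes (1.23 to 1.55%), and several of these genes are multicopy. Put as a share of promoter peaks, noncoding genes took 8.82% (7.32 to 10.5%) in iKO, 5.83% (4.99 to 6.76%) in siSeh1, 6.91% (4.60 to 9.89%) in siSCR, 21.5% (17.5 to 26.0%) in Seh1-flag and 19.9% (15.4 to 25.0%) in Seh1 Ctrl. They make up 19.8% of the genes. In Ctrl the 3 noncoding peaks were among 7 promoter peaks in all.

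**Figure D2:**
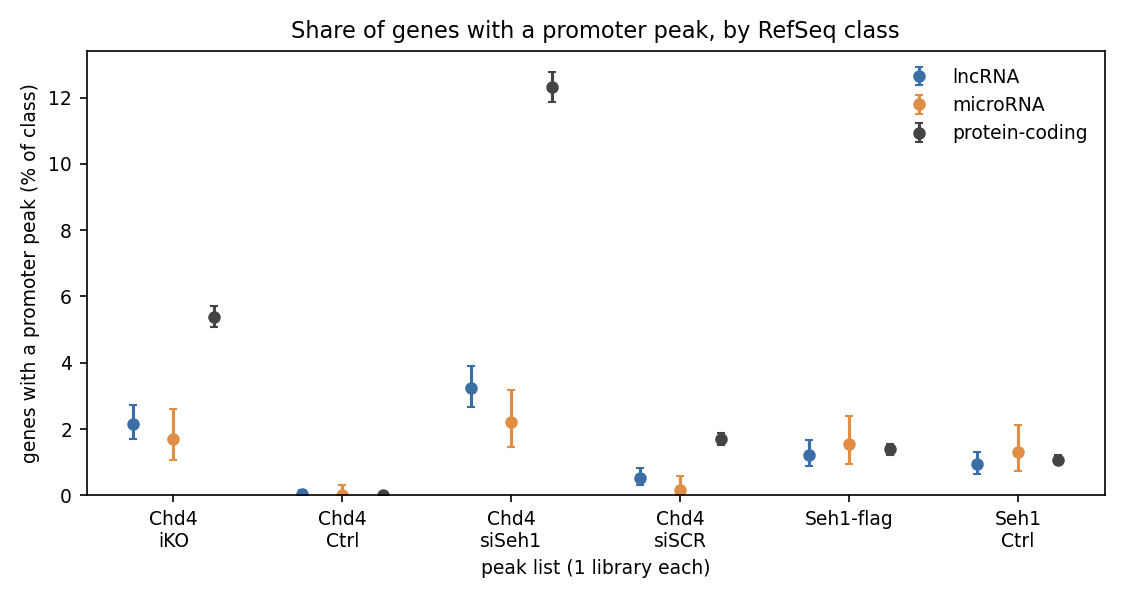
Share of lncRNA, microRNA and protein-coding genes with a promoter peak (y axis, percent of the RefSeq genes of the class that have a curated transcript) in each list (x axis). Points are shares and bars are exact 95% intervals; in iKO, siSeh1 and siSCR the coding share lies above both noncoding classes, and in the Seh1 lists the 3 intervals overlap.

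In iKO and siSeh1 Chd4 peaks at noncoding genes lay farther from the start than those at coding genes. Within 200 bp of the start lay 37.5% (28.5 to 47.1%) of the noncoding peaks and 69.0% (66.2 to 71.7%) of the coding promoter peaks in iKO. In siSeh1 49.4% (41.5 to 57.3%) of noncoding and 71.2% (69.4 to 72.9%) of coding peaks did so, and in siSCR 63.0% (42.4 to 80.6%) of noncoding and 73.6% (68.7 to 78.0%) of coding peaks, where the intervals overlap. The Seh1 lists had few peaks so near: 23.2% of noncoding and 13.7% of coding peaks in Seh1-flag, and 7.14% of noncoding and 18.6% of coding peaks in Seh1 Ctrl. The median distance of the noncoding peaks was 354.5 bp in iKO, 205 bp in siSeh1, 146 bp in siSCR, 530 bp in Seh1-flag and 587 bp in Seh1 Ctrl. Median scores of noncoding and coding promoter peaks were 3.83 and 4.78 in iKO, 4.08 and 5.19 in siSeh1, 4.94 and 5.15 in siSCR, and 4.81 and 4.65 in Seh1-flag.

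Peaks of lncRNAs with and without a coding gene starting next to them were set side by side, the neighbour taken from the RefSeq start table so that its label does not use the peak. In iKO 17 of 18 lncRNA peaks (94.4%, 72.7 to 99.9%) at genes with a coding start within 1000 bp lay within 200 bp of the lncRNA start, against 17 of 56 (30.4%, 18.8 to 44.1%) at the other lncRNAs. In siSeh1 the counts were 35 of 42 (83.3%, 68.6 to 93.0%) with a coding neighbour and 22 of 67 (32.8%, 21.8 to 45.4%) without, and in siSCR 9 of 9 with and 5 of 8 without. Part of this gap can follow from how peaks are named: each goes to its nearest start, so a peak far towards the coding start takes the coding gene's name and leaves the set. Peaks at or after the lncRNA start lie on the side away from a neighbour that is divergent. Among them, 4 of 4 with and 6 of 25 without (24%, 9.36 to 45.1%) lay within 200 bp in iKO. In siSeh1, 13 of 18 with (72.2%, 46.5 to 90.3%) and 7 of 32 without (21.9%) did. Neighbours were not limited to divergent ones: the peaks of E530011L22Rik in iKO and siSeh1 lay inside its neighbour Zfp651. For such pairs this side does not remove the effect of naming. The Seh1 lists had few lncRNAs with a neighbour: 0 of 4 peaks with and 12 of 37 without lay within 200 bp in Seh1-flag, and 0 of 5 with and 3 of 25 without in Seh1 Ctrl. The coding neighbour lay on the opposite strand for 62 of the 80 noncoding genes that had one, on the same strand for 6, and on a strand that could not be set for 12. Among lncRNAs whose start is in the RefSeq promoter table, a coding start within 1000 bp was found for 17 of 61 in iKO (27.9%, 17.1 to 40.8%), 37 of 91 in siSeh1 (40.7%, 30.5 to 51.5%) and 9 of 14 in siSCR (64.3%, 35.1 to 87.2%). Over all 2675 such lncRNAs the share was 21.2%, and it was 14.3% in Seh1-flag and 21.7% in Seh1 Ctrl. Because the annotation names only the nearest start, the coding partner rarely had a promoter peak of its own name in the same list, in 0 of 23 genes in iKO, 2 of 59 in siSeh1 and 0 of 11 in siSCR. Such a peak cannot be given to 1 of the 2 genes from its position.

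**Figure D3:**
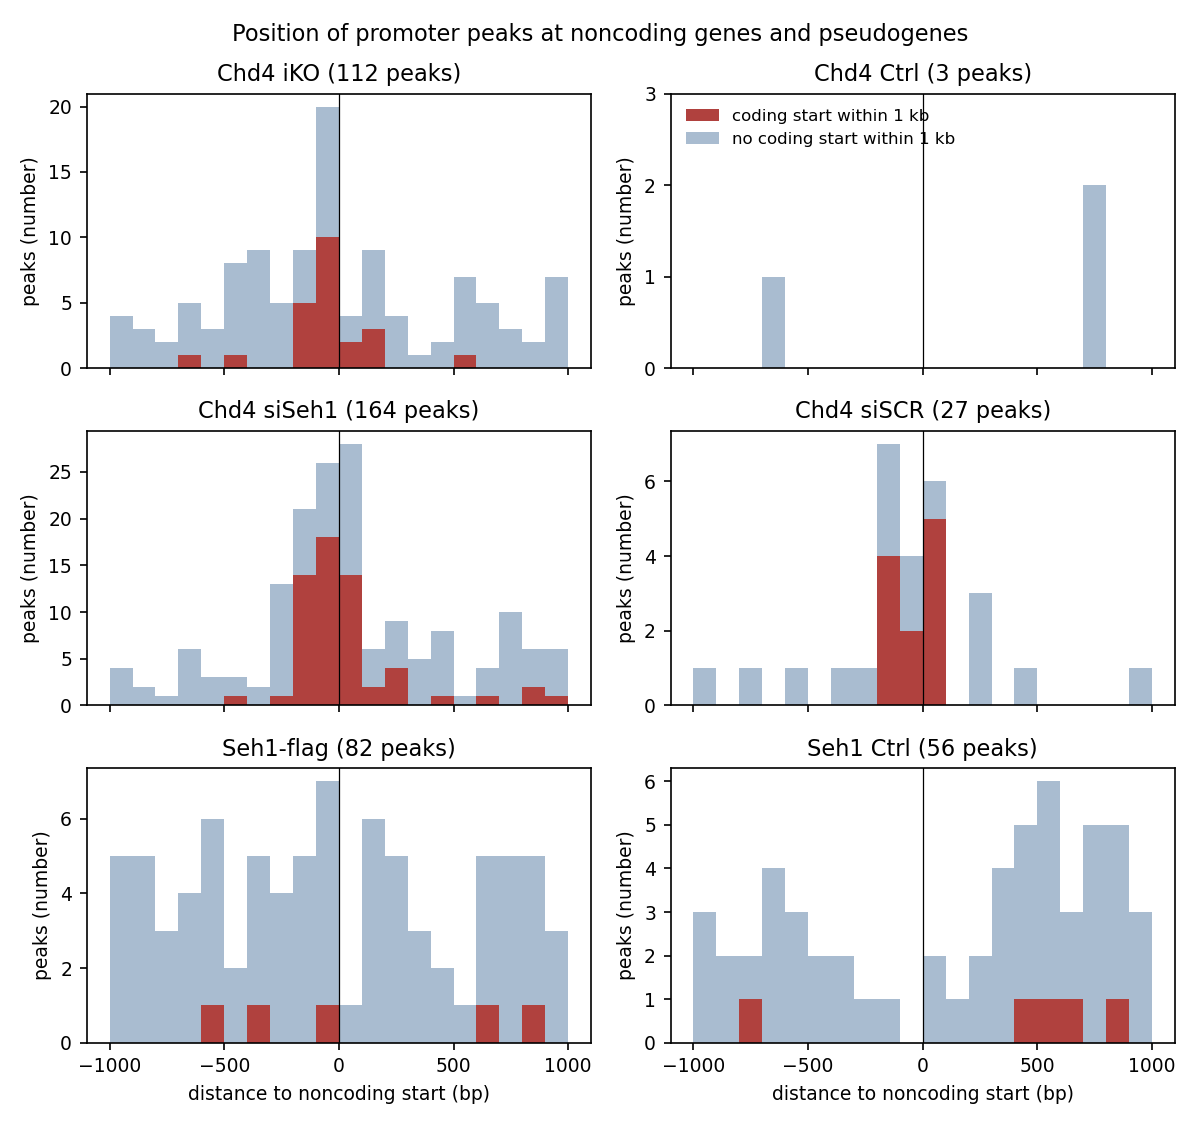
Number of promoter peaks (y axis) by signed distance from the noncoding start in bins of 100 bp (x axis, bp, negative is upstream), 1 panel per list, stacked by whether a protein-coding start lies within 1 kb of the noncoding start, by the RefSeq table or the peak's own annotation. In iKO, siSeh1 and siSCR most peaks with a coding neighbour lie within 200 bp of the start, and in the Seh1 lists peaks spread over the window.

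The lncRNAs listed for Chd4 in iKO, siSeh1 and siSCR had promoters with more CpGs than lncRNA promoters at large. With these lists pooled and split by coding neighbour, median CpG counts lay near those of all lncRNA promoters of the same kind. GC box shares were higher both with and without a neighbour. The median promoter of the listed lncRNAs had a GC content of 55.3% and 13 CpGs in iKO, 59.3% and 20 in siSeh1, and 66.3% and 28 in siSCR, against 51% and 6 over all 2819 lncRNA promoters of the table. In Seh1-flag it had 48.2% and 5, and in Seh1 Ctrl 50% and 5. A GC box (GGGCGG on either strand) was found in 32 of 61 promoters in iKO (52.5%), 53 of 91 in siSeh1 (58.2%), 10 of 14 in siSCR (71.4%), 4 of 28 in Seh1-flag (14.3%) and 4 of 23 in Seh1 Ctrl (17.4%). It was in 27.9% of all lncRNA promoters and 35.7% of all 32851 promoters. CCAAT was found in 67.2% of the listed promoters in iKO, 50.5% in siSeh1, 78.6% in siSCR, 53.6% in Seh1-flag and 34.8% in Seh1 Ctrl, against 37.9% of all lncRNA promoters and 37.4% of all promoters. The split by neighbour used the start table alone. The median promoter of the lncRNAs in the iKO, siSeh1 or siSCR lists had 27 CpGs with a coding start within 1000 bp, against 24 over all lncRNA promoters with one. Without such a start it had 5, against 4 over all without. Among the listed lncRNAs that had such a neighbour, 41 of 45 promoters held a GC box (91.1%) and 32 held CCAAT (71.1%), against 63.2% and 35.5% of all 600 lncRNA promoters with such a neighbour. Among those without one the shares were 30.3% and 44.9% of 89, against 18.3% and 38.5% of 2219. Of all promoters, 13.6% held the TATA box, 3.21% the CRE part, 7.15% the E-box, 3.58% the NRF1 core, 8.86% the ETS motif and 2.56% the motif CGCGAGA. A match is a description of these windows and not a bound site.

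In cells of the mutant genotype given 4-OH-TAM, all 107 noncoding genes of the iKO list were gained, meaning that they had a promoter peak in iKO and none in Ctrl. Over all genes 4.74% were gained and 0.0267% lost, and all 1138 coding genes of the iKO list were gained as well, so the count says nothing particular of noncoding genes. The gained genes were 72 lncRNAs, 21 microRNA genes, 11 pseudogenes, 2 snoRNA genes and the 4.5S RNA gene Rn4.5s. C630043F03Rik had the highest score, 27.2, at rank 11 of all 21294 iKO peaks, followed by 2810408I11Rik beside the cyclin Y-like gene Ccnyl1 with 13.3. Mir692-2 had a score of 11.6, Snord14c 11.3, Mir22hg 10.4, Mir101c 10.3, 4932412D23Rik, near the transcription factor gene Zbtb20, 9.95, and 4930467K11Rik beside the heat shock factor gene Hsf2 9.38. The highest pseudogene scores were 7.40 at Pisd-ps3, 4.89 at H2-Q5, a class I histocompatibility gene copy, and 4.74 at Rpl14-ps1, a copy of a ribosomal protein gene. The 3 genes of the Ctrl list, LOC108168459, Tmem181b-ps and Olfr1300-ps1, had scores of 3.66, 3.66 and 2.94 and no promoter peak in iKO. LOC108168459 has several copies on chromosome X, and its Ctrl peak lay in a long terminal repeat. The iKO list was far longer than the Ctrl list; when it was shortened to its 1154 highest scores it kept 27 noncoding genes. All of them were gained, which was fixed in advance because no noncoding gene of the full iKO list was in Ctrl.

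In siSeh1 cells, 142 of the 155 noncoding genes of the siSeh1 list were gained against siSCR (91.6%, 86.1 to 95.5%), as were 2301 of its 2595 coding genes (88.7%, 87.4 to 89.9%). Over all genes 9.31% were gained and 0.294% lost. They were 98 lncRNAs, 26 microRNA genes, 9 pseudogenes, 1 snoRNA gene and 8 others. 4932412D23Rik had the highest score of the gained genes, 17.3, and was followed by 1700040D17Rik (16.7), beside Tdrkh of the piRNA pathway (siSCR had a peak 28 bp away under that name), and Gm13830 (16.7), beside the dynein light chain gene Dynll1. 2700012I20Rik, whose start lies 327 bp from a start of the corepressor gene Sin3a on the opposite strand, had 15.6. The pseudogenes BC025920 and 2610005L07Rik had 8.03 and 5.60. Of the 26 noncoding genes of siSCR, 13 were also in siSeh1 (50%, 29.9 to 70.1%), whereas 294 of 358 coding genes were (82.1%, 77.8 to 86.0%). The 13 shared genes had their peaks at nearly the same places, all within 103 bp of each other.

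Of the 13 noncoding genes lost in siSeh1, 4 had a siSeh1 peak within 240 bp that the annotation gave to another gene. At BC031361 the siSCR peak (score 6.68) lay 190 bp from a siSeh1 peak of score 23.1 named for Gsk3b, a kinase of Wnt signalling. At 9330104G04Rik a siSeh1 peak of score 12.2 lay 102 bp away under the name of Dact3, a Wnt pathway regulator, and at C130036L24Rik one of 11.7 lay 98 bp away under Ncl, which encodes nucleolin. The 5S RNA copy Gm22291 faced the neighbouring copy Gm25212 at 119 bp. The other 9 had no siSeh1 peak within 240 bp: 1700052K11Rik, 4931429P17Rik, AA465934, Cyp4b1-ps2, Gm6654, Gm9732, Ly6g6g, Mir1904 and Speer4cos, named because they are few. The opposite case was found among gained genes in 2 of 142 in siSeh1 (1700040D17Rik and Gm25212) and 0 of 107 in iKO. Gained genes were searched against the short lists, with 2606 peaks in siSCR and 1154 in Ctrl, and lost genes against 26935 in siSeh1. A short list offers fewer nearby peaks under another name, so the counts for gained and lost genes cannot be compared.

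Gained in both Chd4 comparisons were 19 noncoding genes, 15 of them lncRNAs, while 1.89% of all genes were gained in both. They made up 17.8% (11.0 to 26.3%) of the noncoding genes gained in iKO and 13.4% (8.25 to 20.1%) of those gained in siSeh1. For coding genes these shares were 41.8% of those gained in iKO and 20.7% of those gained in siSeh1. Dancr, which hosts snoRNAs, had a score of 4.10 in iKO and 11.1 in siSeh1, with its peaks at -1 and -5 bp from the start. Gt(ROSA)26Sor, the locus widely used for knock-in alleles in mice, had 4.74 in iKO and 8.79 in siSeh1 at a promoter region shared with Setd5, a chromatin gene. Mir6546, inside the Fc receptor gene Fcgr3, had 3.81 in iKO and 6.20 in siSeh1, and Mir7069, inside the tRNA synthetase gene Farsa, had 2.71 in iKO and 4.58 in siSeh1. The peaks at Mir6546 and Mir7069 lay 245 and 628 bp apart in the 2 lists, whereas those at Dancr and Gt(ROSA)26Sor lay 4 and 11 bp apart. Mir101c and Rn4.5s were also gained in both and are described with the multicopy and peak-dense loci.

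The same positions recurred across the Chd4 lists. Of 30 noncoding genes in both iKO and siSeh1, 26 had peaks within 240 bp of each other, as did 13 of 14 in iKO and siSCR and 13 of 13 in siSeh1 and siSCR. Some of this closeness is built in. Each peak lay within 1000 bp of a start of the gene, and the smallest gap was taken where a gene had several peaks. Matching counts for coding genes are not given here, so the closeness is not shown to be particular to noncoding genes. Peaks in all 3 of these lists lay at 11 noncoding genes, 9 lncRNAs, Pisd-ps3 and Snord14c, and 7 of the 11 had a coding start within 1000 bp. The 11 were 42.3% (23.4 to 63.1%) of the 26 noncoding genes of siSCR, against 62.3% (57.0 to 67.3%) of its 358 coding genes.

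At Chaserr the scores were 4.74 in iKO, 11.1 in siSeh1 and 3.50 in siSCR, at -287, -232 and -262 bp from its start. Chaserr (chromosome 7, 73539798 to 73558395) lies next to Chd2 (73426652 to 73541746), a remodeller of the same family as Chd4, and is known in mice to hold Chd2 expression down. No list had a promoter peak named for Chd2, although peaks lay within its body in siSeh1 (6.33), siSCR (2.88) and Seh1 Ctrl. C630043F03Rik, 351 bp from the Tle1 start on the opposite strand, had scores of 27.2 in iKO, 13.2 in siSeh1 and 7.86 in siSCR, and again no list named Tle1 at its promoter. 3110056K07Rik, with 6 CCAAT boxes, had 8.67 in iKO, 22.3 in siSeh1 and 11.5 in siSCR, and 2810408I11Rik had 13.3 in iKO, 16.7 in siSeh1 and 6.68 in siSCR. Mir22hg, with no coding start within 1000 bp, had 10.4 in iKO, 8.29 in siSeh1 and 13.9 in siSCR, at -47, 33 and 7 bp from its start.

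4930549G23Rik had scores of 7.32 in iKO, 16.9 in siSeh1 and 5.86 in siSCR. This lncRNA (chromosome 18, 67776033 to 67799943) overlaps the span of Seh1l (67774876 to 67795487), the gene of Seh1 itself, but its start and its peaks (67800000, 67799989 and 67800008) lie beyond that span, beside the start of the centrosome gene Cep192. 4930467K11Rik had 9.38 in iKO, 5.88 in siSeh1 and 5.60 in siSCR. 4930483J18Rik, beside the Srf coactivator gene Mrtfa, had 4.21 in iKO, 9.07 in siSeh1 and 5.60 in siSCR, and A430035B10Rik had 4.18 in iKO, 6.94 in siSeh1 and 4.69 in siSCR.

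**Figure D4:**
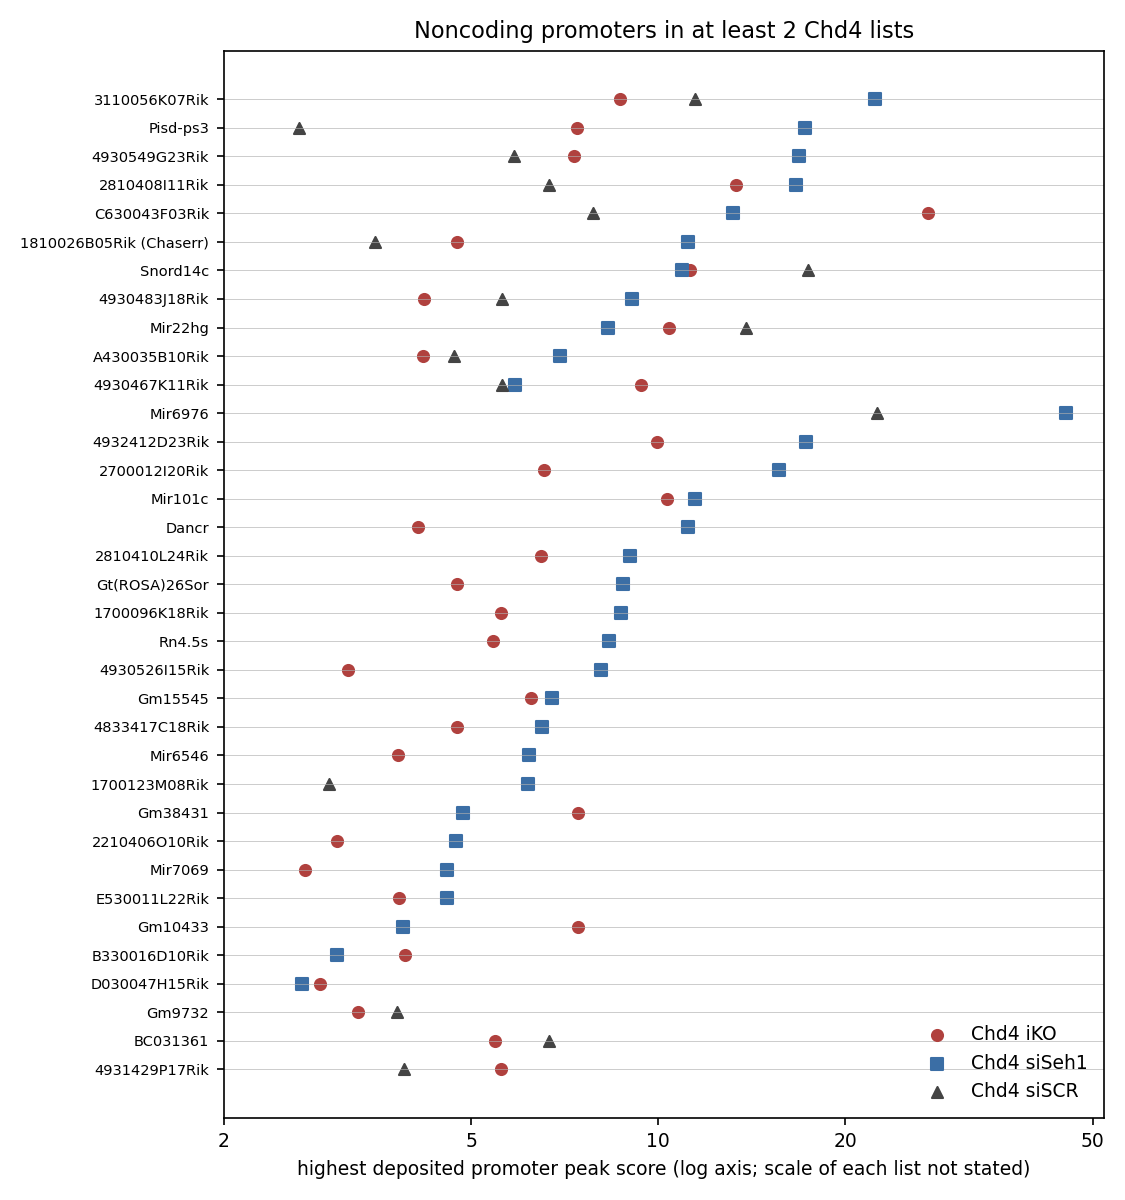
Highest deposited promoter peak score (x axis, log scale) of each noncoding gene with a promoter peak in at least 2 Chd4 lists (y axis), for iKO (circles), siSeh1 (squares) and siSCR (triangles). Scores are marked side by side and have no common scale; the upper 11 genes are in all 3 lists, and the highest siSeh1 score shown, 45.3, is that of Mir6976.

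The highest noncoding score of siSeh1 and of siSCR belonged to a microRNA gene inside a coding gene. Mir6976 had scores of 45.3 in siSeh1, rank 3 of 26935 peaks, and 22.5 in siSCR, rank 4 of 2606. Both summits (46552911 and 46552905 on chromosome 17) lay 978 and 984 bp from the hairpin's start, inside Srf (46546838 to 46558267), the serum response factor gene. The iKO list had a summit of score 33.4 at 46552888, 1001 bp from the same start and so just outside the window. Mir484 had a score of 9.11 in siSeh1, at -108 bp from its start and beside the start of Marf1, which was 352 bp away on the opposite strand. Peaks of microRNA genes lay inside a coding gene in 14 of 22 cases in iKO, 20 of 28 in siSeh1, 2 of 2 in siSCR, 16 of 21 in Seh1-flag and 10 of 16 in Seh1 Ctrl. Within 200 bp of the hairpin's start lay 18.2% of microRNA peaks in iKO, 28.6% in siSeh1, 14.3% in Seh1-flag and 6.25% in Seh1 Ctrl.

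Snord14c, a snoRNA gene inside Hspa8, which encodes a constitutive heat shock chaperone, had scores of 11.3 in iKO, 10.9 in siSeh1, 17.4 in siSCR and 24.2 in Seh1-flag. These summits (40803181, 40803339, 40803257 and 40803273 on chromosome 9) lay at -402, -244, -326 and -310 bp from the snoRNA's start, inside the span of Hspa8 (40801276 to 40805202). Promoter peaks named for Hspa8 itself numbered 2 in siSeh1 and 1 in Seh1-flag, and 0 in the other lists. The other snoRNA genes were listed once or had copies. Snord11 (2.68 in siSeh1) and Snord70 (2.96 in Seh1-flag) lie in Nop58, which encodes a snoRNP core protein, Snord73a (4.56 in Seh1-flag) lies in Rps3a1, and Snord116l2 has several copies on chromosome 7.

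Several listed genes belong to multicopy or peak-dense blocks, where reads of 1 copy can be placed on another, and their counts are uncertain. The 4.5S RNA array on chromosome 6 (Rn4.5s) held 3 iKO and 7 siSeh1 promoter peaks, with highest scores of 5.42 in iKO and 8.33 in siSeh1 and none in Ctrl or siSCR. Mir101c had promoter peaks in iKO (10.3), siSeh1 (11.5) and Seh1 Ctrl, within 20 bp of each other. The first 50 kb of the assembled chromosome 9 around it held 33 iKO, 1 Ctrl, 33 siSeh1, 2 siSCR, 15 Seh1-flag and 34 Seh1 Ctrl peaks. Speer4cos, in a family of testis-expressed gene copies on chromosome 5, had 28.7 in Seh1-flag, the highest noncoding score of that list, and 6.41 in siSCR. The chromosome 5 block that holds the copies had 218 Seh1-flag and 85 siSCR peaks, which is 0.873% and 3.26% of those lists, against 12 in Seh1 Ctrl (0.0576%), 16 in iKO, 0 in Ctrl and 6 in siSeh1. Pisd-ps3, on an unplaced contig, had 7.40 in iKO, 17.2 in siSeh1, 2.65 in siSCR and 28.2 in Seh1-flag. The peak named for Mir692-2 in iKO and one named for Mir692-3 in Seh1-flag (5.49) lay side by side on chromosome 13, at 74406970 and 74407349, while an iKO peak named for Mir692-3 (7.42) lay on chromosome 4. Mir684-1 was likewise named on several chromosomes. How far copy number in these cells or read placement shaped these counts was not tested.

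The Seh1 lists shared 1 noncoding gene with each other and 0 to 5 with each Chd4 list. Of all genes 1.38% had a promoter peak in Seh1-flag alone, 1.05% in Seh1 Ctrl alone and 0.0229% in both, and Mirlet7g was the only noncoding gene in both. Its summit in Seh1-flag (score 2.96) and its interval in Seh1 Ctrl lay 918 and 508 bp downstream of the hairpin's start, 410 bp apart and inside Wdr82. After Speer4cos and Pisd-ps3, the highest Seh1-flag scores were 24.2 at Snord14c, 21.7 at Rpl14-ps1, 20.2 at Speer8-ps1, 12.4 at E230032D23Rik, 11.4 at Mir6335 and 11.3 at Mir3101. Noncoding genes took 26 of the 100 promoter peaks with the highest scores in Seh1-flag, against 5 of 100 in iKO, 2 of 100 in siSeh1 and 5 of 100 in siSCR. Their shares of all promoter peaks were 21.5% in Seh1-flag, 8.82% in iKO, 5.83% in siSeh1 and 6.91% in siSCR. In Seh1 Ctrl, which has no scores, D630013N20Rik was nearest to its peak centre (5 bp), followed by Mir382 (93 bp), a microRNA of the imprinted Dlk1-Dio3 region, 1700048O20Rik (160 bp) and Msx1os (-194 bp), antisense to the homeobox gene Msx1. Seh1-flag shared 5 noncoding genes with iKO, 5 with siSeh1, 3 with siSCR and 2 with Chd4 Ctrl, and Seh1 Ctrl shared 3 with iKO, 4 with siSeh1 and 0 with siSCR or Chd4 Ctrl. No such counts are given here for coding genes, so these say nothing particular of noncoding genes. A Seh1-flag peak lay within 240 bp of the Chd4 peak at 2 of 5 genes in iKO, 1 of 5 in siSeh1, 2 of 3 in siSCR and 0 of 2 in Chd4 Ctrl; Snord14c was among them in iKO, siSeh1 and siSCR.

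Lists of well-studied noncoding genes had few members with a promoter peak, as did noncoding genes at large. Of 28 nuclear and neural lncRNAs (25 found in the RefSeq table), 3 had a promoter peak: Oip5os1 in siSeh1 (9.96, at 3 bp), and Tug1 (5.86) and Dlx6os1 (4.65) in Seh1-flag. The Tug1 peak lay 8 bp from the start the annotation used, at 3647544 on chromosome 11. The start in the RefSeq promoter table lay 1278 bp from that start for Tug1, and 2094 bp from the annotated start for Dlx6os1. Dlx6os1, also called Evf2, is transcribed antisense to Dlx6 in interneuron progenitors. Of 21 snoRNA host genes, Dancr and Gas5 were listed, Gas5 in siSeh1 (6.03, at 69 bp), 67 bp from the start of Zbtb37. Of 12 microRNA host genes (8 in the table), Mir22hg was listed. Of 10 structured RNAs (9 in the table), Rpph1, the RNA of RNase P, was listed in siSeh1 (3.69), Terc, the telomerase RNA, in Seh1-flag (3.30), and the 45S ribosomal precursor Rn45s in Seh1 Ctrl. Of 6 p53-linked lncRNAs, Gas5 and Tug1 were listed. Per list the counts were 1 of 28 nuclear and neural lncRNAs in siSeh1 and 2 in Seh1-flag, 2 of 21 snoRNA hosts in siSeh1 and 1 in iKO, and 1 of 6 p53-linked lncRNAs in siSeh1 and 1 in Seh1-flag. Of all lncRNAs 2.16% were listed in iKO, 3.25% in siSeh1 and 1.23% in Seh1-flag, and no more is read from lists this short. Of 13 imprinted and X-inactivation lncRNAs (12 in the table), such as Meg3 and H19, 0 had a promoter peak in any list under the names searched. A gene searched under an older name could be missed. The antisense gene Gnasas1, inside Gnas, was not counted among them and had a promoter peak in siSeh1 (3.95, at 30 bp). Of 22 neural and p53-linked microRNAs, such as Mir9-2 and Mir34a, 0 had a promoter peak in any list. Over all microRNA genes 1.71% were listed in iKO and 2.20% in siSeh1.

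Members at the limit of the window show how sharply it cuts. In iKO B330016D10Rik (score 3.91) and Gm7854 (2.39) lay inside at 999 bp, while Mir6976 (33.4) and Gm13872 (2.71) lay outside at 1001 and 1013 bp. In siSeh1 Gm16863 (3.79) was inside at -999 bp, and 2400006E01Rik (3.79) outside at -1002 bp. In siSCR Mir6976 and Cyp4b1-ps2 (3.31) were the last inside, at 984 and -992 bp, and Pisd-ps3 had a further peak outside at 1028 bp. In Seh1-flag Klra13-ps (4.83) was inside at 980 bp and Gm3716 (2.34) outside at -1020 bp. In Seh1 Ctrl AF357425 was inside at 996 bp and Gm26760 outside at 1008 bp.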

How the data were processed

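The peak lists were annotated with HOMER on mm10, per the file headers, and hold 1 row per peak. Bowtie2 and HOMER appear in the submitters' processing notes, as do the human builds hg18 and hg38, against the mouse build of the headers. Which peak caller, threshold and input were used, and whether libraries were pooled, is not stated in the sources used here. Each deposited peak score is the authors' own and has no stated scale; in Seh1 Ctrl all scores are 0, its rows are intervals, and its peaks were placed at their centres. The distance to the nearest start, the gene name and the gene type are the authors' deposited annotation.

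Promoter peaks lay within 1000 bp of a start. A gene was gained when iKO (or siSeh1) held a promoter peak for it and Ctrl (or siSCR) did not, and lost in the opposite case. Peaks within 240 bp counted as the same position. Gene classes, coding neighbours and sequences came from RefSeq tables of GRCm38.p6, which matched 357 of the 359 genes; 404 of the 444 starts lay within 2 bp of a table gene end. The promoter table holds a start for 17492 of 21900 coding genes, so a coding promoter named by the annotation also counted as a neighbour, with start distance and strand unknown. Table starts alone were used to compare lncRNA peak distances, for the shares of lncRNAs with a coding start, and to split promoter features. There, a lncRNA with a neighbour known only from the annotation, such as 3110056K07Rik beside Arid4a, counted as having none. Named genes were those with the highest scores per list and gene type, those gained in both comparisons with a proper name, all genes of Ctrl, genes in both Seh1 lists and members of 7 fixed lists; a few others are named for their neighbours or because their set is small, after their values were seen. Members and lists were chosen with earlier results of these data known. Python 3.11.15, numpy 2.4.6, pandas 2.3.3 and scipy 1.17.1 were used, and the set code was tested on simulated lists.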

Additional observations from a re-analysis of the deposited data

Results flagged for a closer look

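The Chd4 comparisons went opposite ways at 3 lncRNA genes, each with a promoter peak in iKO and none in Ctrl, but in siSCR and none in siSeh1. 4931429P17Rik had a score of 5.59 in iKO, at -886 bp from its start, and 3.90 in siSCR, at 437 bp, so the peaks were not at the same place. BC031361 had 5.47 in iKO and 6.68 in siSCR; a siSeh1 peak lay 190 bp from the siSCR peak under the name of Gsk3b. Gm9732 had 3.28 in iKO and 3.80 in siSCR, with the nearest siSeh1 peak 75050 bp away. With 1 library per group these differences between the comparisons were not tested.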

How the results depend on the processing

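Across planned and added alternatives, 52 values answering a comparison stayed within 1.5 times the reported count and 44 did not; none could turn in sign, being counts. With a window of 500 bp the noncoding genes numbered 71 in iKO, all 71 gained, 0 in Ctrl (0 lost), 37 in Seh1-flag, 20 in Seh1 Ctrl and 0 in both Seh1 lists, and with 2000 bp 5 in Ctrl, 129 in Seh1-flag, 95 in Seh1 Ctrl and 6 in both Seh1 lists. Scores of at least 5 left 30 in iKO, all 30 gained, 0 in Ctrl (0 lost), 55 in siSeh1, 13 in siSCR, 33 in Seh1-flag, 46 gained and 4 lost in siSeh1 and 8 gained in both. At equal list length 27 were in iKO, all 27 gained, 54 in siSeh1, of which 41 gained, and 6 gained in both. Without genes that have a coding start within 1000 bp, siSeh1 held 96 (90 gained), siSCR 15, and 11 were gained in both. Without predicted and clone-based names there were 44 in iKO, all 44 gained, 55 in siSeh1 (51 gained, 6 lost), 10 in siSCR, 39 in Seh1-flag, 25 in Seh1 Ctrl and 6 gained in both. Without pseudogenes Ctrl held 1 gene, which was the 1 lost. Single-copy lncRNAs alone, chosen after seeing the data, gave 0 lost in iKO, 7 lost in siSeh1 and 0 in both Seh1 lists. With siSCR as the control of iKO, also chosen after seeing the data, 93 genes were gained. Leaving out peaks in repeats moved no count by over 1.5 times. The larger moves follow by construction, since each setting keeps fewer or more peaks. That all iKO genes stayed gained under the settings that keep fewer peaks was also fixed in advance, since none of the full iKO set was in Ctrl. Of the other values, 30 stayed within their interval and 20 moved. Among the noncoding shares of promoter peaks, those that moved by over 1.5 times were iKO at 5.44% (score at least 5), 5.65% (equal length) and 3.78% (no predicted names), siSeh1 at 3.73% (no coding start nearby) and 2.27% (no predicted names), siSCR at 4.09% and 2.81% under the same 2 settings, Seh1-flag at 11.5% and Seh1 Ctrl at 8.87% (no predicted names), and Ctrl at 0% (500 bp) and 14.3% (no pseudogenes). Smaller moves also left their interval. With 500 bp the share was 26.5% in Seh1-flag, 14.9% in Seh1 Ctrl, 6.57% in iKO and 4.87% in siSeh1. No paired analysis was possible because each group has 1 library and no test was made.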
